A study of Mus musculus with 6 samples.

Results

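The Ms4a genes (membrane-spanning 4-domain family, subfamily A) were examined in mannose receptor (MR) negative and positive dendritic cells through every array probe annotated to Ms4a3, Ms4a4c, Ms4a4d, Ms4a6b, Ms4a6c, Ms4a6d, Ms4a7 or Ms4a8a. These 8 genes had 14 of the 45281 probes. Dendritic cells were grown from mouse bone marrow during 1 week in GM-CSF, which all samples share as the growth factor, and were given fluorescent ovalbumin. Cells that had taken it up were sorted as MR-positive and the others as MR-negative, and total RNA was hybridised to Illumina bead arrays directly after the sort. There were 3 arrays of each population, titled M1 to M3. The labels give neither strain, sex nor age, and do not say whether a number stands for a mouse, a culture or a day, so a p-value here covers only how these arrays spread, which may be technical.

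MS4A proteins are small membrane proteins that cross the membrane 4 times, with both ends in the cytoplasm. The best known members are CD20 (Ms4a1), a surface protein of B cells, and the beta chain of the high-affinity IgE receptor (Ms4a2) of mast cells and basophils. In mouse, Ms4a3 marks granulocyte and monocyte progenitors, whereas Ms4a6 genes and Ms4a7 are known as genes of monocytes and macrophages. Several MS4A proteins are reported to sit beside signalling receptors and to change how these signal or are trafficked.

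Values are normalized log2 intensities, and each difference is the MR-positive mean less the MR-negative mean. A probe was called when its two-sided limma p, adjusted over all 16686 tested probes, was under 0.05. Of the 14 member probes, 10 passed the filter on detection and were tested, and 8 of those were detected on all 6 arrays. Of these 10, 6 were higher in MR-positive cells, 1 was lower and 3 did not pass. Over all tested probes 13.8% were called, 7.19% as higher and 6.58% as lower. The median difference of the tested member probes was 1.04, against 0.02 for all tested probes. The count and the median are descriptions. The members were chosen with earlier results of these data known, and the 6 higher probes belong to 3 genes. The filter also left out dim probes, and 1 member probe (Ms4a6b) passed it through MR-positive arrays alone. By gene, Ms4a7, Ms4a8a and Ms4a6d were higher, Ms4a3 was lower, Ms4a6b and Ms4a6c did not pass by this fit, and Ms4a4c and Ms4a4d were not detected on any array. With the title number as a block, 7 member probes were higher and 2 lower, where 27.7% of all tested probes were called. The count of member probes called was 8 without the M2 MR-negative array and 5 without the M2 or the M3 MR-positive array. All probes called numbered 1352, 1177 and 1162 in these fits, against 2298 of 16686 with every array and no block. The populations did not overlap for 9 of the 10 probes, 7 with MR-positive arrays above and 2 below. Over all tested probes 32.8% did not overlap, 17.5% with MR-positive above and 15.2% below.

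**Figure D1:**
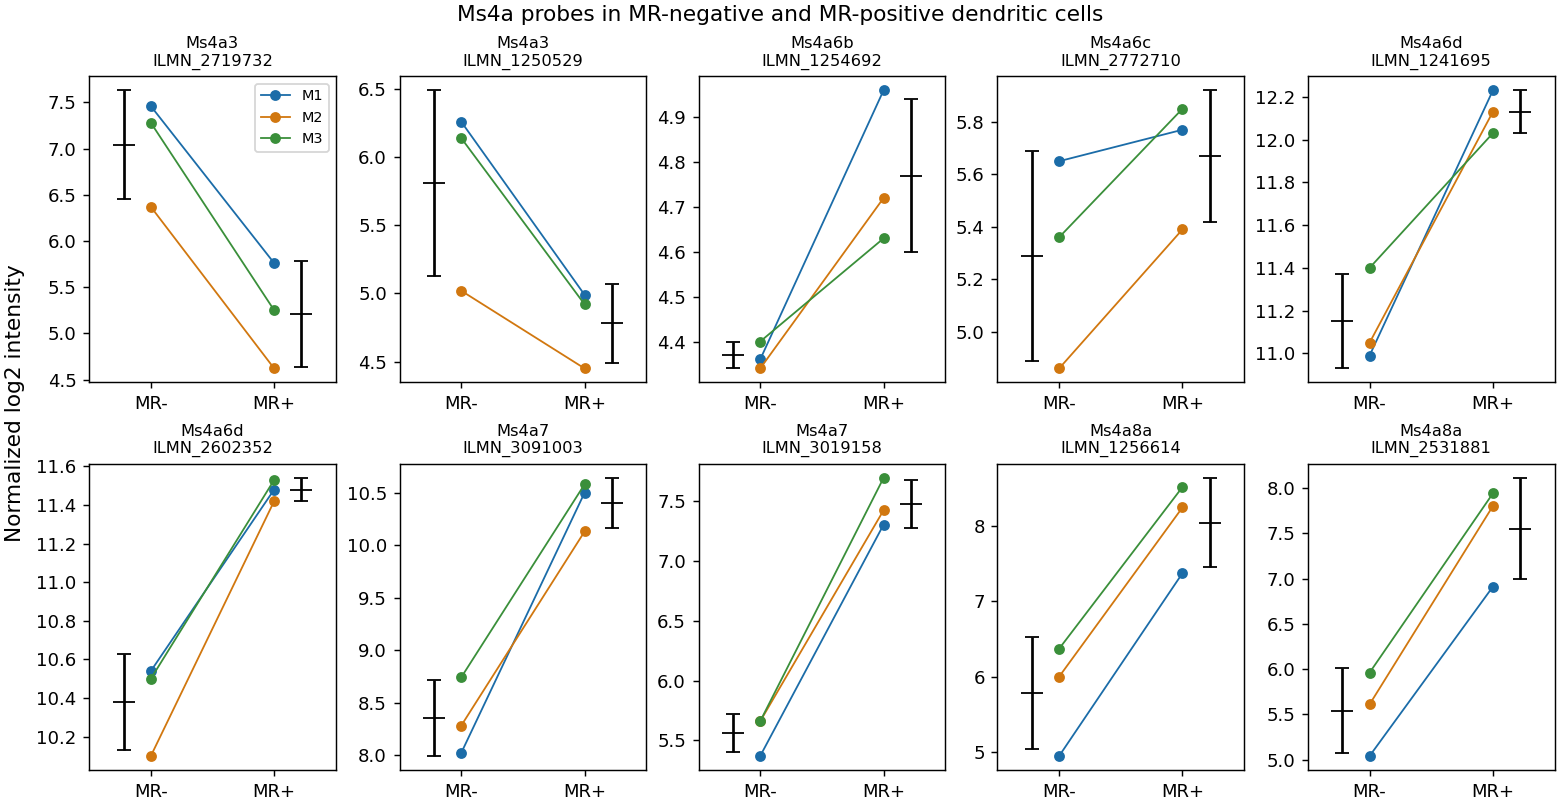
Normalized log2 intensity of the 10 tested Ms4a probes, with a panel per probe and its own vertical axis. Points are arrays, lines join arrays of the same title number, and black bars are the mean ± SD of 3 arrays. Every line rises for Ms4a6b, Ms4a6c, Ms4a6d, Ms4a7 and Ms4a8a and falls for Ms4a3.

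Ms4a7, a gene that in mouse marks macrophages and several tissue-resident macrophage populations, was higher in MR-positive cells by both of its detected probes. Its brighter probe (ILMN_3091003) read 8.02, 8.28 and 8.74 on the MR-negative arrays of M1, M2 and M3, and 10.50, 10.13 and 10.58 on the MR-positive arrays. The lowest MR-positive value thus lay above the highest MR-negative one. The difference was 2.05 ± 0.21 (SE, n = 3 arrays each, adjusted p = 0.0011 by limma), or 4.14-fold. The dimmer probe (ILMN_3019158) read 5.37, 5.66 and 5.66 in MR-negative and 7.30, 7.42 and 7.69 in MR-positive cells. It gave the smallest adjusted p of all member probes (difference 1.90 ± 0.15, 3.74-fold, adjusted p = 0.00041 by limma), and here too the populations did not overlap. The other Ms4a7 probes, ILMN_1252361 and ILMN_2622436, were detected on no array and say nothing of the difference.

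Ms4a7 kept its direction in every pair of arrays with the same title number, as did all 10 tested member probes. RefSeq gives it more than 1 start, and the windows of 300 bases (250 before to 50 after each start, build GRCm38.p6, chromosome 19, minus strand, 5′ to 3′) are shown. They lie at chr19:11336097-11336396 (start 1) and chr19:11334646-11334945 (start 2). Capitals mark matches to GAAANNGAA, a repeat that interferon regulatory factors bind, and to the AP-1 motif TGANTCA, searched on both strands.
Ms4a7 start 1: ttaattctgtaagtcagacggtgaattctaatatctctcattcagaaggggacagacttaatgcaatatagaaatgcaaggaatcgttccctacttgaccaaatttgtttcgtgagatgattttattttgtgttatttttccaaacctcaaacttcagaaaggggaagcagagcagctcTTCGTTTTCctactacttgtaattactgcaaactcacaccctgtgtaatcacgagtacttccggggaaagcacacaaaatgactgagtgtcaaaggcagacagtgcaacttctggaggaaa
Ms4a7 start 2: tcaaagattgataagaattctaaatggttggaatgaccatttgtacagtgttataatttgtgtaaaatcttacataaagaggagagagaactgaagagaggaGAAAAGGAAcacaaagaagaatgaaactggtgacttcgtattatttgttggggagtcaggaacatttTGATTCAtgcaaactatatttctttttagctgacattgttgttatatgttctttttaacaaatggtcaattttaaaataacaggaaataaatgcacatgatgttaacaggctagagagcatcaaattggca
The capitals of the first window are GAAANNGAA on the opposite strand, and those of the second are GAAANNGAA followed by TGANTCA. No matches overlap.

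Ms4a8a, which in mouse is known from alternatively activated macrophages and from gut epithelium, had the largest difference of the members. Its brighter probe (ILMN_1256614) read 4.95, 6.0 and 6.37 on the MR-negative arrays of M1 to M3 and 7.37, 8.24 and 8.51 on the MR-positive arrays. The populations did not overlap, and the M1 array was the lowest of its population in both. The difference was 2.27 ± 0.41 (SE, n = 3, 4.81-fold, adjusted p = 0.012 by limma). The second probe (ILMN_2531881) read 5.04, 5.61 and 5.96 against 6.91, 7.80 and 7.94, again with M1 lowest in both populations, and differed by 2.01 ± 0.33 (4.03-fold, adjusted p = 0.0073 by limma). Within a title number the brighter probe differed by 2.42, 2.23 and 2.14, so the spread lay between numbers more than between these differences. With the number as a block its SE was 0.11 in place of 0.41. When the M2 or the M3 MR-positive array was left out, the brighter probe had an adjusted p of 0.053 and 0.056, and without a detection filter the 2 probes had 0.086 and 0.059.

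The Ms4a8a window (chr19:11081054-11081353, GRCm38.p6, minus strand) held a match to TGANTCA and a match to AGGTCA, the core motif of nuclear receptors such as PPARγ, which is named in the study's title. Both matches are in capitals.
Ms4a8a: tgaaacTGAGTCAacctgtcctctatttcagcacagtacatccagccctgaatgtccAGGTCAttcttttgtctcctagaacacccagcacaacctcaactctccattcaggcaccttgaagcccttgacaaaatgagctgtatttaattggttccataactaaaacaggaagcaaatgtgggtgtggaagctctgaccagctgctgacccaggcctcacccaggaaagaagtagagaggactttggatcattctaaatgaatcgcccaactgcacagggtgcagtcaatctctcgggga
AGGTCA alone was found in 1 of the 8 member windows and in 16.3% of all 32851 promoter windows of the table. TGANTCA was found in 2 of the 8 and in 7.81% of all.

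Ms4a6d, a gene of monocytes and macrophages that in mouse is reported to act with the receptor VSIG4, was higher in MR-positive cells by both of its probes. The brighter probe (ILMN_1241695) read 10.99, 11.05 and 11.40 on the MR-negative and 12.23, 12.13 and 12.03 on the MR-positive arrays of M1 to M3. The difference was 0.99 ± 0.15 (SE, n = 3, 1.98-fold, adjusted p = 0.0051 by limma). The second probe (ILMN_2602352) read 10.54, 10.10 and 10.50 against 11.48, 11.42 and 11.53 and differed by 1.10 ± 0.15 (2.14-fold, adjusted p = 0.0037 by limma). For both probes the MR-positive arrays lay close together (SD 0.10 and 0.06) and above every MR-negative array. Ms4a6d and Ms4a7 probes passed under all 15 alternatives.

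The neighbouring genes Ms4a6c and Ms4a6b, close relatives of Ms4a6d, were dim. Ms4a6c (ILMN_2772710) read 5.65, 4.86 and 5.36 in MR-negative and 5.77, 5.39 and 5.85 in MR-positive cells, so the populations overlapped. Its difference of 0.38 ± 0.23 did not pass (adjusted p = 0.34 by limma, and 0.056 with the block). Ms4a6b (ILMN_1254692) was detected on all 3 MR-positive and on no MR-negative array, with 4.96, 4.72 and 4.63 against 4.36, 4.34 and 4.40. The mean of its MR-positive values lay 1.19-fold above the lowest level of a detected probe on the MR-negative arrays (4.51 to 4.52). That bound does not take the spread of arrays into account. The measured difference of 0.40 ± 0.13 had an adjusted p of 0.084 by limma without the block and 0.038 with it. Ms4a6b entered the test through the MR-positive arrays alone, so these p-values and its place in the counts are descriptions. Whether a probe also bound RNA of a near-identical relative was not tested, since probe sequences were not used.

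The promoter windows of Ms4a6b (chr19:11518309-11518608) and Ms4a6c (chr19:11469118-11469417), both on the plus strand of GRCm38.p6, are shown because they are alike. Capitals mark the 2 runs of at least 15 bases that they share, of 24 and 48 bases.
Ms4a6b: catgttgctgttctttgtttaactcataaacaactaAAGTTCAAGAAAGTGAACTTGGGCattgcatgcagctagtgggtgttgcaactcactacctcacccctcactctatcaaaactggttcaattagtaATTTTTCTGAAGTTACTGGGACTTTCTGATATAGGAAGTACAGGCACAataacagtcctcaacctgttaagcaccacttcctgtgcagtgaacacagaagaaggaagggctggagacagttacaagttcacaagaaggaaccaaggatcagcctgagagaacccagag
Ms4a6c: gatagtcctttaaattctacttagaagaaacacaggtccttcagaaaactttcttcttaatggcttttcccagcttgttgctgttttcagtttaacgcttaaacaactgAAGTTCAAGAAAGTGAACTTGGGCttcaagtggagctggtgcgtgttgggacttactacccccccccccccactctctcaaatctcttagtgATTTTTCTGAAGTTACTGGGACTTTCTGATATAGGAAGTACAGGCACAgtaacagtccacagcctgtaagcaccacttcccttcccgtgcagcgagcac
The shorter shared run holds GAAAGTGAA, a match to GAAANNGAA, which begins 206 bases before the start of Ms4a6b and 133 before that of Ms4a6c. That motif was found in 4 of the 8 member windows, namely those of Ms4a6b, Ms4a6c and both starts of Ms4a7, and in 8.56% of all windows. The PU.1 motif GAGGAAGT was found in 0 of 8 member windows and in 3.20% of all. A match describes letters only, not a bound site. RefSeq windows matched 7 of the 8 members by symbol, all but Ms4a6d.

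Ms4a3 was the member that was lower in MR-positive cells. Its protein HTm4 is known in human blood cells for binding a phosphatase (CDKN3) that acts on the cell cycle kinase CDK2. The brighter probe (ILMN_2719732) read 7.46, 6.37 and 7.28 on the MR-negative arrays of M1 to M3 and 5.76, 4.62 and 5.25 on the MR-positive arrays. The populations did not overlap, and M2 was the lowest in both. The difference was -1.83 ± 0.36 (SE, n = 3, 3.55-fold lower, adjusted p = 0.016 by limma), and within M1, M2 and M3 it was -1.71, -1.74 and -2.03. The second probe (ILMN_1250529), detected on 3 of 3 MR-negative and 2 of 3 MR-positive arrays, read 6.26, 5.02 and 6.14 against 4.99, 4.45 and 4.92. Its difference of -1.02 ± 0.33 did not pass without the block (adjusted p = 0.086 by limma) and passed with it (adjusted p = 0.0031). The brighter probe did not pass when an array was left out in 3 cases, those of M2 MR-positive (adjusted p = 0.054), M3 MR-negative (0.071) and M3 MR-positive (0.065), nor without a detection filter (0.10). The second probe passed when the M2 MR-negative array was left out (-1.41, adjusted p = 0.010).

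The Ms4a3 window (chr19:11640802-11641101, GRCm38.p6, minus strand) is shown as that of the member with the opposite direction. Capitals mark a match to TTGCNNAA, a motif of the C/EBP factors of granulocyte development, which begins 41 bases after the start.
Ms4a3: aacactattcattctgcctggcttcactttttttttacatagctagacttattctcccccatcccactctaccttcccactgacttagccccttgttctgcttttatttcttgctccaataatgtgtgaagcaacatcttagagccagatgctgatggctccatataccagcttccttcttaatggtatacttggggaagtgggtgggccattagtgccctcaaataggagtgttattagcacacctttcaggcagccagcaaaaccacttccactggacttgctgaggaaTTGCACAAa
This motif was found in 10.8% of all windows, and in 2 of the 8 member windows, those of Ms4a3 and Ms4a4d.

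**Figure D2:**
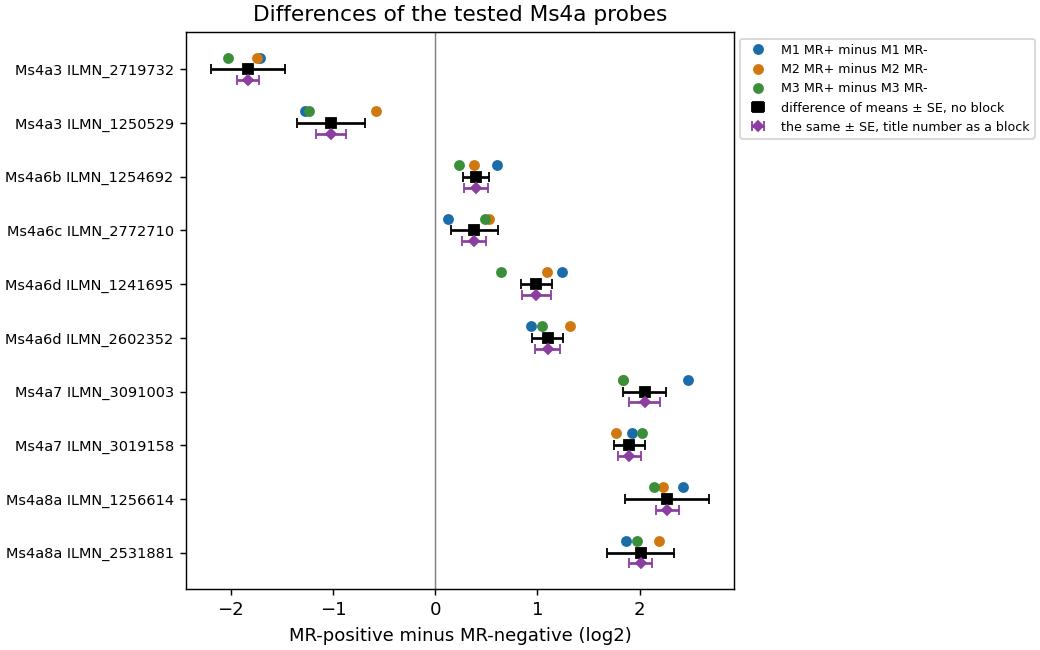
MR-positive minus MR-negative log2 difference of the 10 tested Ms4a probes. Coloured points are differences within a title number, black squares the difference of means ± SE, and purple diamonds the same with the number as a block. For Ms4a8a and Ms4a3 the SE is much narrower with the block, while for Ms4a6d and Ms4a6b it hardly differs.

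Ms4a3 was set beside markers of granulocytes and their progenitors. Of 10 listed genes 9 were measured. By the fit without the block, 1 was lower (Prtn3, a granule protease, -1.28 ± 0.21, adjusted p = 0.0076 by limma, named after its value was seen) and 8 did not pass, where 7.13% of genes were called lower. With the block 7 of the 9 were lower, where 30% of genes were called in either direction. The median difference of the list was -0.73. Ctsg, the granule protease cathepsin G, had a difference of the other sign (0.42 ± 0.35, adjusted p = 0.51 by limma). S100a8, a calcium-binding protein abundant in neutrophils, read 13.64, 11.92 and 12.69 against 12.04, 11.25 and 11.63 (difference -1.11 ± 0.41, adjusted p = 0.13 by limma and 0.0035 with the block). Its M2 array was the lowest of its population in both, as for Ms4a3. S100a9, its partner, differed by -1.41 ± 0.48 (adjusted p = 0.10 by limma, and 0.0028 with the block). Ngp, a granule protein, differed by -0.69 ± 0.21 (adjusted p = 0.076, and 0.0035 with the block). Like S100a8, the genes S100a9, Ngp, Ltf and Ctsg had M2 lowest in both populations. Prtn3 had M2 highest in both (7.63 and 6.10), and Mpo, Elane and Camp did not have it lowest among MR-negative arrays. The summed background-corrected intensity of the list ran from 5310 to 17500 on MR-negative and from 3160 to 5540 on MR-positive arrays. Most of that sum came from S100a8 and S100a9, which did not pass without the block. No measured gene of the list was undetected. Its count of calls was 4 without M1 MR-positive or M2 MR-negative (1970 and 1352 of all probes called), and 2 with arrays scaled to equal medians (2395). Its part in the Ms4a3 difference was not tested, and in such bulk samples fewer cells of a type and less RNA per cell cannot be told apart.

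Ms4a7 was set beside markers of macrophages. Of 9 listed genes 8 were measured, 2 were higher, 0 lower and 6 did not pass by limma, with a median difference of 0.29, where 8.19% of genes were called higher. At an unadjusted limma p under 0.05, 4 were higher and 0 lower. The share of all genes at that p was not computed, so this count cannot be read as a shift of the list. With the block 4 were higher and 1 lower, where 30% of genes were called. The 2 were Mertk, a receptor for dying cells (2.10 ± 0.28, adjusted p = 0.0033), and C1qc, a complement chain (1.27 ± 0.28, adjusted p = 0.026), both named after their values were seen. The brightest of the list, Cd14 (0.66 ± 0.18, adjusted p = 0.053, and 0.0032 with the block), Adgre1, an adhesion receptor (-0.18 ± 0.14, 0.49), and Csf1r, the M-CSF receptor (-0.08 ± 0.16, 0.80), did not pass without the block. The summed intensity, most of it from Cd14 and Adgre1, was 6410 to 8140 in MR-negative and 8910 to 9790 in MR-positive cells. None of the measured genes was undetected. Leaving out M2 MR-negative, M3 MR-negative or M3 MR-positive left 1 call each, where all probes called fell to 1352, 1151 and 1162. The part of these genes in the Ms4a7, Ms4a8a and Ms4a6d differences was not tested.

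Against the sort and the cell label, the arrays read as follows. Mrc1, the gene of the mannose receptor, was higher in MR-positive cells (2.64 ± 0.39, adjusted p = 0.0051 by limma), which checks the labels. Of 9 dendritic cell markers, Flt3 was undetected on every array, Itgax was higher and the other 7, led in brightness by Cd74, H2-Ab1 and H2-Aa, were lower, where 8.19% of all genes were called higher and 7.13% lower. Their summed intensity was 34100 to 40200 in MR-negative and 18600 to 23700 in MR-positive cells. Of 6 T and NK cell markers, Cd247 and Ncr1 were undetected, Cd3e was too dim to test, and Cd3g, Klrd1 and Cd3d, the 3 tested, were lower, with sums of 1860 to 4890 against 28.3 to 61.9. Of 7 mast cell and basophil markers Ms4a2 and Prss34 were undetected and 1 of 4 tested, Hdc, was lower, while Cpa3 (-0.37) and Gata2 (-0.33) did not pass (sums 702 to 895 against 87.7 to 193). Zbtb46 and Cd3d entered the test through MR-negative arrays alone, as no MR-positive array detected them. Of 3 measured B cell markers Pax5 was undetected and neither Cd79b nor Ebf1 passed (sums 19 to 26.6 and 15.5 to 36.0). The part of these marker differences in the Ms4a values was not tested. Arrays of a population correlated at 0.968 to 0.992 over tested probes, and 35.3% to 36.8% of probes were detected on each.

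No other Ms4a gene rose above background on more than 1 array. RefSeq places 21 Ms4a genes in 1 stretch of chromosome 19, with 1 other protein-coding gene (Gm8369) among them. In their order Ms4a8a is the 4th and Ms4a7 the 12th, Ms4a4c, Ms4a6c, Ms4a6b, Ms4a4d and Ms4a6d follow with Ms4a4b among them, and Ms4a3 is the 21st, at the end next to Ms4a2. Between the genes called higher lay genes that were too dim to test, not analysed here, or tested without passing (Ms4a6c 0.38, Ms4a6b 0.40). Whether the rises form an unbroken row can therefore not be told. Ms4a4c (ILMN_2678607) and Ms4a4d (ILMN_2735547), relatives of the macrophage gene Ms4a4a, were at 4.14 to 4.19 on all 6 arrays and undetected on each. The signals of the 4 undetected member probes were 20.6 to 30.2 before correction, the range of array medians being 27.6 to 30.3. Of the listed genes outside the members, Ms4a1, Ms4a2, Ms4a4b, Ms4a10, Ms4a13, Ms4a15, Ms4a18 and Ms4a19 were detected on no array, and Ms4a5 on 1 MR-negative array. Ms4a4a, Ms4a12, Ms4a14 and Ms4a20 were not analysed here. A probe not above background bounds a level and does not show that the gene is off.

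**Figure D3:**
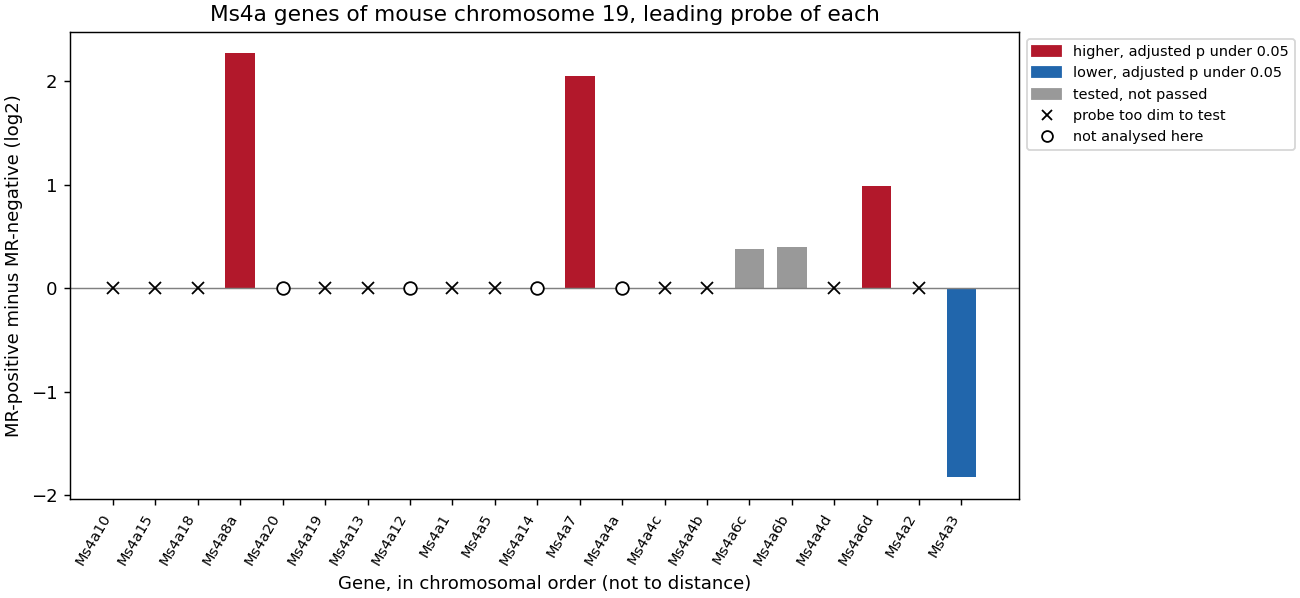
The 21 Ms4a genes in chromosomal order, evenly spaced, with the log2 difference of the leading probe of each tested gene as a bar from 0. Ms4a8a, Ms4a7 and Ms4a6d are the called rises and Ms4a3 the called fall, with untested genes (crosses) or genes not analysed here (circles) between several of them.

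Tmem176a and Tmem176b, related genes of the same protein superfamily that lie outside this stretch, were both called lower in MR-positive cells. TMEM176B is known from rat and mouse dendritic cells, where it is high in immature cells and acts as a cation channel. Tmem176b read 7.90, 8.51 and 8.10 in MR-negative and 4.88, 4.54 and 4.55 in MR-positive cells, where 1 of 3 arrays detected it. The difference of the measured values was -3.51 ± 0.19 (SE, n = 3, adjusted p = 8.3e-05 by limma), and the populations did not overlap. With the lowest level of a detected probe in place of a value under it, it was at least 11.3-fold lower. Tmem176a read 4.84, 4.96 and 4.74 against 4.16, 4.28 and 4.32, with no detection in MR-positive cells, which bounds it at 1.23-fold lower or more. That probe (ILMN_2795412) entered the test through the MR-negative arrays alone, so its adjusted p (0.019 by limma) is a description. The other Tmem176a probe (ILMN_2795410) was detected on no array and says nothing of the difference. Tmem176a did not pass with M2 MR-negative (adjusted p = 0.071), M3 MR-negative (0.052), M1 MR-positive (0.0501), M2 MR-positive (0.065) or M3 MR-positive (0.055) left out, or with an offset of 50 (0.063). Over all genes 7.13% were called lower.

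Genes whose proteins are reported to act with an MS4A protein showed no common direction. Of 13 listed genes 12 were tested, 1 was higher, 2 lower and 9 did not pass, with a median difference of 0.06. Over all genes 15.3% were called. Trem2, the lipid receptor of macrophages whose soluble form is tied to the MS4A genes in human, read 9.63, 8.99 and 9.32 against 10.98, 10.94 and 10.94 (1.64 ± 0.17, adjusted p = 0.0012 by limma). Card9, the adaptor downstream of dectin-1, was at least 3.97-fold lower, with no MR-positive array detecting it. It too entered the test through the MR-negative arrays alone, so its adjusted p (0.00014 by limma) and its place in the count are descriptions. Tnfrsf18, the costimulatory receptor GITR that in mouse T cells associates with MS4A4B, was lower on every MR-positive array (-2.68 ± 0.21, adjusted p = 0.00041 by limma). Clec7a, the beta-glucan receptor dectin-1 that associates with MS4A4A, read 10.66, 11.36 and 11.52 against 11.72, 12.15 and 12.30 (0.87 ± 0.25, adjusted p = 0.063 and 0.0015 with the block). With the block, Syk (0.48), Kit (0.50) and Clec7a joined Trem2 as higher and Cdk2 (-0.45) joined the lower genes, which made 7 calls where 30% of all genes were called. Leaving out M1 MR-negative gave 5 calls, where all probes called numbered 2539. Cdkn3 (-0.24 ± 0.54, adjusted p = 0.84) did not pass, Fcer1g, Tyrobp, Nlrp3 and Fcer1a did not pass either, and Vsig4 was undetected on every array.

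**Figure D4:**
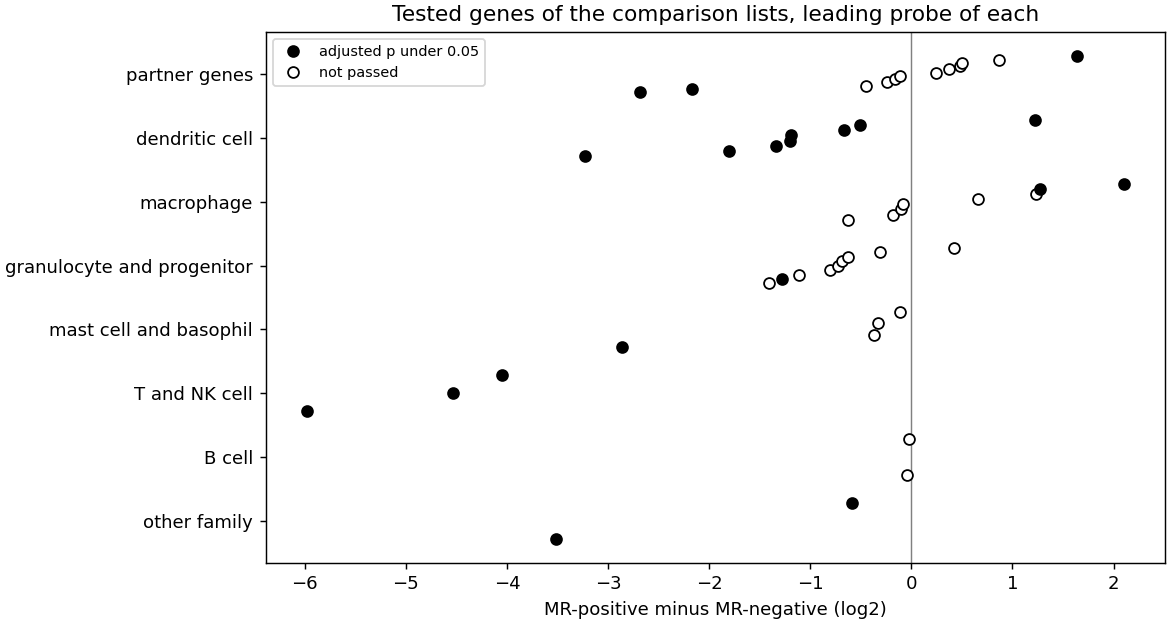
MR-positive minus MR-negative log2 difference of each tested gene of the comparison lists, by its brightest tested probe. Filled points passed an adjusted p of 0.05 without the block. The granulocyte genes lie mostly below 0 with 1 filled point, and the macrophage genes spread on both sides with 2 filled points above 0.

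The profiles nearest to the 2 members with the largest differences were found by the distance between log2 values over the 6 arrays, each gene centred on its own mean. Nearest to Ms4a8a were Npy, the neuropeptide Y precursor (distance 0.46), Cav1, caveolin 1 (0.55), and Slc6a8, the creatine transporter (0.66). Each of these was lowest on the M1 array of both populations. Nearest to Ms4a7 were Stac2, an adaptor protein (0.28), Mcoln3, an endolysosomal cation channel (0.45), and Mgll, monoacylglycerol lipase (0.52). Their differences ran from 1.70 to 2.06 beside the 2.05 of Ms4a7, and from 1.90 to 2.43 for the genes near Ms4a8a. The distances rest on 6 arrays and are descriptions. Likeness in the M1 pattern and in the size of the difference follows from choosing genes by that distance.

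**Figure D5:**
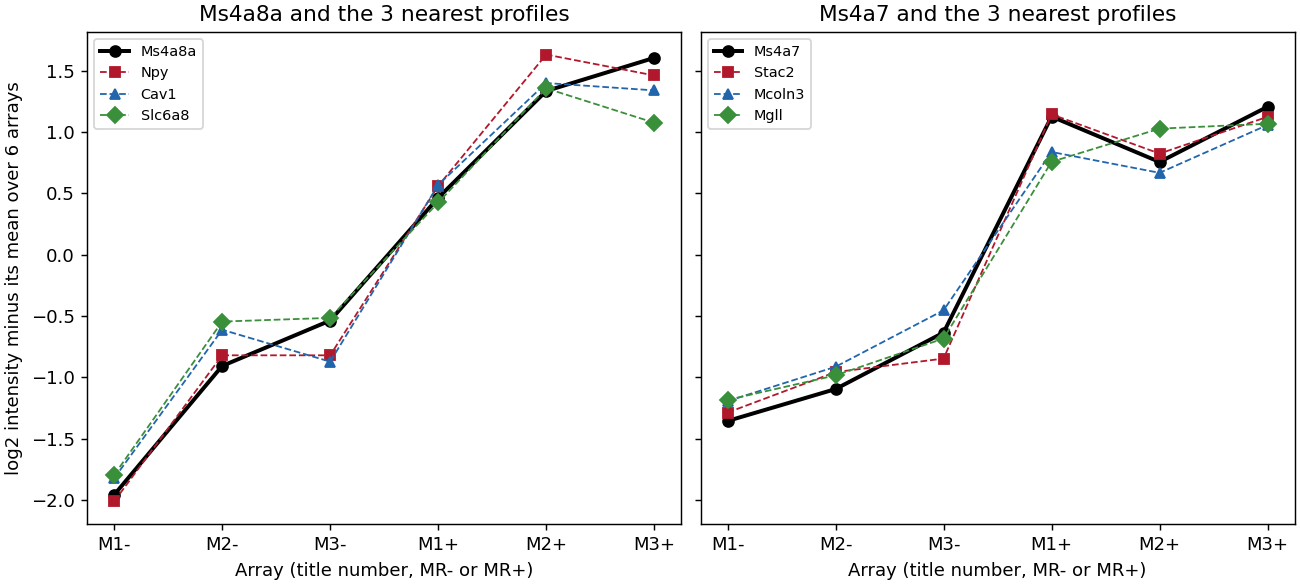
Centred log2 intensity on each array of Ms4a8a and Ms4a7 (black) and of the 3 genes with the nearest profiles (dashed). In the left panel all 4 genes are lowest on the M1 array within each population, and in the right panel the MR-negative and MR-positive arrays form separate levels.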

How the data were processed

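Per the file headers, the deposited table gives for each probe and array an intensity with a p-value. The intensity values are linear and showed no background subtraction or scaling between arrays. The deposited p-values were read as detection p. A second deposited table holds intensity values the authors had quantile normalized, as their identical sorted values show. The upstream software and the scanner are nowhere named in the labels or files used.

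Here the first table was background corrected (normexp from the detection p), quantile normalized and put on log2 with an offset of 16 by neqc of limma 3.58.1 in R 4.3.3. Probes with detection p under 0.05 on at least 3 of 6 arrays (16686) were tested with lmFit and eBayes, population as the only term, two-sided, adjusted by Benjamini-Hochberg over all of them. The brightest tested probe stood for a gene in lists (9370 genes). The fit was tested on simulated data. Probe annotation gave 34885 probes a single symbol, 18 several, and did not list 10378. The gene IDs of all 14 member probes matched RefSeq.

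Same-numbered arrays deviated together from their population means, with correlations over tested probes of 0.708 (M1), 0.569 (M2) and 0.275 (M3). Arrays of different numbers gave -0.629 to 0.382, so the M3 pair was no closer than M3 MR-negative with M2 MR-positive (0.382). All 3 pairs being above 0.1, a fit with the number as a block is given where it changes a call. The number of arrays limits the precision. Every probe of the members, passing genes of the family and partner lists, the 3 nearest profiles and the brightest 3 markers of each list are named. Members, lists and motifs were chosen with earlier results of these data known. Ms4a8 and Ms4a9 on the family list are older names of Ms4a8a and Ms4a4c. Alternatives were other scalings, filters, the authors' table, variance moderation with a trend, and left-out arrays.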

Additional observations from a re-analysis of the deposited data

How the results depend on the processing

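Under the 15 alternatives every one of the 147 member probe differences that could be computed kept its direction, 136 kept their side of the threshold, 8 no longer passed and 3 passed only there. The member probes called numbered 4 without a detection filter, all higher, where 45281 probes were tested, and 5 to 8 when 1 array was left out. With a detection p under 0.01 on all 6 arrays, neither Ms4a3 probe was tested. All probes called numbered 4628 with the replicate block, 3485 without both M1 arrays, and 1151 to 2539 when 1 array was left out. They numbered 1659 without a detection filter and 1690 with that stricter one, against 2298 by the fit without the block. The other family members called numbered 1 with an offset of 50 and 0 with the stricter detection filter, where neither Tmem176 gene was tested, and 1 to 2 when 1 array was left out. The partner genes called numbered 7 with the replicate block, 7 without both M1 arrays, and 3 to 5 when 1 array was left out. The granulocyte and the macrophage markers called each numbered 5 without both M1 arrays, and with 1 array left out 1 to 4 and 1 to 3. The macrophage markers called numbered 1 without a detection filter or with the stricter one. These marker counts were added after seeing the data. The pairing changed no other member's call than those of the second Ms4a3 probe and Ms4a6b. Scaling to equal medians moved the median of all tested probes from 0.02 to -0.11 and the share of calls that were higher from 52.2% to 30.6%, and the member counts stayed at 6 higher and 1 lower. Where a count changed by the filter, the number of probes tested differs by construction, and for the others the cause was not tested. Ms4a6b and Tmem176a were not above background in 1 population each, so their differences are known only as bounds.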
